A study of Mus musculus with 8 samples.

Results

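miR-23, miR-27 and miR-24 are made in mouse from 2 clusters of 3 hairpins each, and their levels were followed through arrest and cell-cycle re-entry in 8 small-RNA libraries of NIH-3T3, a fibroblast line established from mouse embryos. The members were the 2 arms of 6 hairpins (miR-23a, miR-27a and miR-24-2 in the first cluster; miR-23b, miR-27b and miR-24-1 in the second), counted by identity over the first 20 bases. This gave 11 of the 435 mature miRNAs counted, because miR-24-3p is the same molecule from both hairpins. For the serum experiment, cultures kept in 10% serum went without serum for 48 h, and 20% serum was then added. Harvest was at 0 h (labelled G0), 12 h (G1), 16 h (S), 20 h (G2/M) or 24 h (G1). For the contact experiment, cultures grown in 10% serum were plated at 12% confluency. They were harvested on day 0 (labelled asynchronous), day 3 or day 5 (each labelled G0, contact inhibition). Each condition is 1 library. The phases are those of the labels and were not measured here.

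A miRNA hairpin is cut into a short duplex, and 1 strand, the guide, stays in an Argonaute protein while the other, the passenger, is mostly degraded. Bases 2 to 8 of the guide, the seed, pair with target mRNAs and lower their output. In these clusters the 3p arms are the usual guides. The miR-23a cluster is transcribed as 1 primary transcript of its own, and the miR-23b cluster lies inside a host gene. As background, miR-24 is known to target cell-cycle genes such as E2f2 and Myc, miR-23 to target glutaminase downstream of MYC, and miR-27 to restrain adipogenesis through Pparg.

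In the mouse genome (build GRCm38, RefSeq and GENCODE annotation) the first cluster spans 404 bases of the plus strand, at chr8:84208518-84208921. Mir24-2 lies at its 3′ end, overlaps an exon of the long noncoding RNA Gm26532, and is opposite Mir3074-2. The second spans 792 bases of the plus strand, at chr13:63300484-63301275. Its 3 hairpins lie within the protein-coding gene 2010111I01Rik, Mir27b and Mir24-1 overlapping an exon of it, and opposite Fancc. The mature sequences (RefSeq, GRCm38) show which arms can tell the clusters apart. An entry matched 10 of the 11 arms, and miR-23b-3p is named only. They are printed 5′ to 3′ with the seed in capitals, first the guides and then the passengers.
miR-23a-3p: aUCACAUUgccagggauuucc
miR-27a-3p: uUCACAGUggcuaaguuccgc
miR-27b-3p: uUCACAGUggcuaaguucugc
miR-24-3p: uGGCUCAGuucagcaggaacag
miR-23a-5p: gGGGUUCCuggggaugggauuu
miR-23b-5p: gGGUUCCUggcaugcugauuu
miR-27a-5p: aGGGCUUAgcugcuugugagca
miR-27b-5p: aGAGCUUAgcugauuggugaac
miR-24-2-5p: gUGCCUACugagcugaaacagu
miR-24-1-5p: gUGCCUACugagcugauaucagu

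Counting from 1 at the 5′ end, miR-27a-3p and miR-27b-3p differ by C19U alone, outside the seed, so both carry the seed UCACAGU. miR-23a-3p and miR-23b-3p likewise differ at position 19 only, within the 20 bases counted. Between the miR-23a-3p and miR-27a-3p seeds the difference is U7G. The passengers of miR-27 differ inside the seed, by G3A. In the RefSeq sequences the 2 passengers of miR-24 have the same seed, UGCCUAC, and part company further 3′. Of 16 miR-24-1-5p reads that matched the hairpin in full, 18.75% began at the RefSeq 5′ end. Another 56.25% began 1 base further 3′, which shifts their seed by 1 base. Reads of both these 5′ ends were counted as miR-24-1-5p. A read therefore has to reach position 19 to be given to the a or the b form. Reads of 19 bases reach it too but were left out, since 20 bases were counted. Of the reads of at least 20 bases that matched at the other positions counted, at most 0.227% in any library carried a base of neither form for miR-23-3p. For miR-27-3p it was at most 0.184%. The miR-27-3p reads that ended before position 19 numbered 199 at serum 0 h, beside 2397 of at least 20 bases, and 20 on contact day 3, beside 3890.

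Total reads were 6121247 to 8512472 in the serum libraries and 707202 to 801593 in the contact libraries. miRNA reads made up 1.85% to 12.6% and 46.1% to 57.7% of them, or 137585 to 892533 reads per library in all. Levels are given as counts per 1000000 miRNA reads (CPM) after TMM scaling, whose factors were 1.17 to 1.43 in serum and 0.558 to 0.808 in contact libraries, so a level set across the experiments moves with the scaling. The 5 fibroblast markers looked for were read in every library, at a summed 104666 to 574083 CPM. At serum 0 h, 5 of the 6 epithelial markers counted were present at a summed 2125 CPM, against 0 to 50.6 CPM elsewhere, where miR-200a-3p, miR-200b-3p and miR-141-3p were at 0. Of the 2 blood markers counted, miR-142-3p had 62 reads in that library and 0 in the others. The other, miR-451a-5p, had 0 reads in that library and at most 4 in any library. Pluripotent markers reached a summed 934 CPM at serum 12 h against 0 to 163 CPM elsewhere, although miR-295-3p among them was at 0 at 12 h and highest at serum 0 h (111 CPM). The neural markers were at 0 at 12 h, and at 467 to 835 CPM elsewhere. Muscle markers, mostly miR-206-3p, reached 1048 CPM on contact day 0 against 151 to 338 CPM elsewhere. Their part in the ratios that rest on these libraries was not tested. In the 12 h library the 748 reads of miR-23b-3p were 6 distinct inserts, against 17 distinct inserts for 748 reads at 20 h, so the counts of the 12 h library rest on fewer distinct inserts.

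Together the 11 arms held 204450 reads, 7.10% of all miRNA reads, and 99.2% of these were 3p arms. Their share of miRNA reads was 6.89% at serum 0 h, 6.06% at 12 h, 7.34% at 16 h, 7.78% at 20 h and 6.79% at 24 h. In the contact libraries it was 6.44% on day 0, 11.02% on day 3 and 3.75% on day 5. The serum libraries lay close together, and the lowest and highest shares were both of contact-arrested cells.

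The order of the guides by level was miR-24-3p, miR-23a-3p, miR-27a-3p, miR-23b-3p and miR-27b-3p, at mean TMM-scaled levels of 48167 ± 33894, 14753 ± 3573, 6101 ± 2361, 2099 ± 918 and 1373 ± 597 CPM (SD over the 8 libraries). By mean level they ranked 10, 18, 28, 55 and 76 among all miRNAs. miR-24-3p was above miR-23a-3p in every library. miR-23a-3p was above miR-27a-3p in every library. The neighbours miR-23b-3p and miR-27b-3p changed places, with miR-27b-3p the higher at 16 h and on contact day 5. As counts from a ligation library, these levels are not corrected for how well each sequence ligates, and with bulk RNA fewer cells with a miRNA and less of it per cell cannot be told apart.

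**Figure D1:**
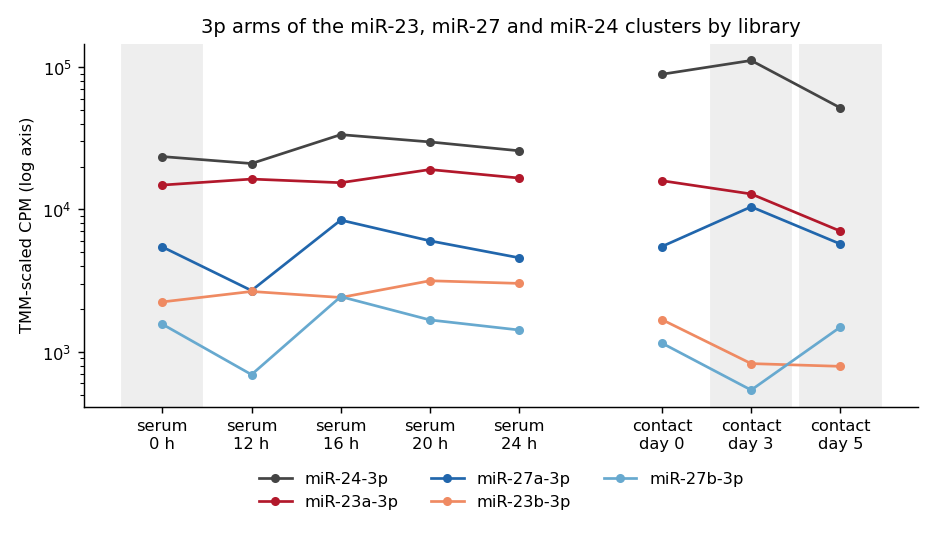
TMM-scaled CPM (log axis) of the 5 guide arms in each library; each point is 1 library, lines join libraries of 1 experiment, and grey bands mark the libraries labelled G0. miR-24-3p sits between 21004 and 33506 CPM in serum libraries and between 51650 and 111152 CPM in contact libraries, and the miR-27 forms dip together at 12 h.

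miR-24-3p, the shared guide of both clusters, stood at 23504, 21004, 33506, 29779 and 25800 CPM at serum 0, 12, 16, 20 and 24 h. In contact libraries it stood at 88945 CPM on day 0, 111152 on day 3 and 51650 on day 5. On this scale every contact library was above every serum library, whether arrested or not. With total miRNA reads as the scale, day 5 was the lowest of the 8. Against starved cells, miR-24-3p was 4.73-fold higher on contact day 3 (95% exact conditional binomial interval 4.62 to 4.84) and 2.20-fold higher on day 5 (2.14 to 2.26). With total miRNA reads as the scale these ratios were 2.67 and 0.854, so the direction on day 5 turned with the scaling. The ratio of miR-24-3p to miR-23-3p reads (a and b together) within a library needs no scaling. It was 1.38, 1.11, 1.88, 1.34 and 1.31 in the serum libraries and 5.06, 8.13 and 6.59 on contact days 0, 3 and 5. The experiments did not overlap in this ratio. They also differ in depth and in the share of reads that are miRNA (given above), and the part of these in the ratio was not tested.

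miR-23a-3p, the guide of the first hairpin, had a highest level 2.71 times its lowest with TMM scaling and 3.04 times with DESeq2 scaling, less than each of the other 4 guides (3.87 to 5.29 and 4.06 to 5.71). With total miRNA reads as the scale it was 6.26 times, above miR-24-3p (3.12) and miR-27a-3p (3.17), so the order of the spreads turned with the scaling. Its levels were 14832, 16336, 15406, 19057 and 16609 CPM at serum 0 to 24 h, and 15906, 12841 and 7041 CPM on contact days 0, 3 and 5. The 3 libraries labelled G0 (7041 to 14832 CPM) were all below the other 5 (15406 to 19057 CPM). It was the only 1 of the 11 arms whose groups did not overlap. Over all 347 miRNAs tested, 4.32% had every G0 library below every other library and 4.03% had every one above. With total-read or DESeq2 scaling the groups of miR-23a-3p overlapped.

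miR-23b-3p, its counterpart from the second cluster, stood at 2242, 2655, 2409, 3156 and 3025 CPM in the serum libraries. It stood at 1684, 827 and 791 CPM on contact days 0, 3 and 5. All 3 contact libraries lay below all 5 serum libraries, and the arrested contact cells were lowest.

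The miR-27 guides moved more between serum times. miR-27a-3p stood at 5457, 2694, 8415, 6017 and 4576 CPM at 0, 12, 16, 20 and 24 h, with the lowest level at 12 h and the highest at 16 h. On contact days 0, 3 and 5 it stood at 5492, 10438 and 5718 CPM, with day 3 the highest of all 8 libraries (16 h with total reads as the scale). miR-27b-3p, too, was lowest at 12 h and highest at 16 h of the serum times, at 1565, 692, 2441, 1675 and 1424 CPM. In contact libraries it went the other way from miR-27a-3p, with 1152 CPM on day 0, 539 on day 3 and 1494 on day 5.

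Within a library, the miR-24 guide took 48.4% to 53.9% of the clusters' 3p reads in serum cells and 77.4% to 81.9% in contact cells. The miR-23 guides took 28.7% to 43.8% in serum and 10.1% to 15.5% in contact cells. The miR-27 guides took 7.81% to 17.5% in serum and 5.87% to 10.8% in contact cells, so their ranges overlapped. The guides of a cluster did not keep 1 ratio of reads to each other. miR-23a-3p to miR-27a-3p was 2.72, 6.06, 1.83, 3.17 and 3.63 at serum 0 to 24 h and 2.90, 1.23 and 1.23 on contact days 0, 3 and 5. miR-23b-3p to miR-27b-3p was 1.43, 3.84, 0.987, 1.88 and 2.12 in serum and 1.46, 1.53 and 0.530 in contact libraries. In both clusters the ratio was highest at 12 h and, of the serum libraries, lowest at 16 h.

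**Figure D2:**
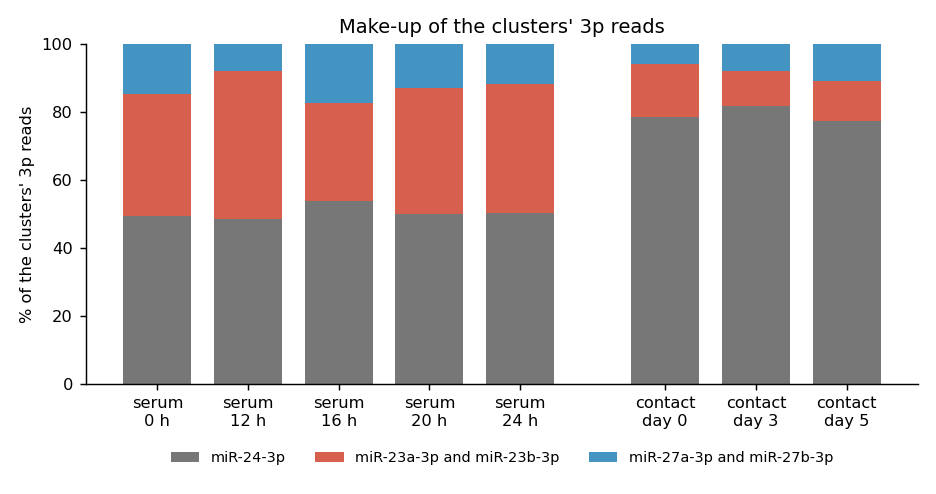
Make-up of the clusters' 3p reads in each library, as a percent of their sum; bars stack miR-24-3p, the 2 miR-23-3p forms and the 2 miR-27-3p forms. miR-24-3p fills 48.4% to 53.9% of each serum bar and 77.4% to 81.9% of each contact bar.

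To set the clusters against each other, the a form was taken as a share of a and b reads, which is free of scaling. It is not free of the length counted, since reads under 20 bases were left out. The commonest length was 20 bases for miR-27a-3p and 21 for miR-27b-3p, and the part of shorter reads in the share of single libraries was not tested. For miR-23-3p and for miR-27-3p, the a form of the first cluster had most reads in every library. Its share was steady over serum release and highest on contact day 3. miR-24-3p, the same molecule from both clusters, has no part in these shares, so the share of a whole cluster is not known. miR-23a-3p was 86.9%, 86.0%, 86.5%, 85.8% and 84.6% of miR-23-3p reads at serum 0, 12, 16, 20 and 24 h, and 90.4%, 93.9% and 89.9% on contact days 0, 3 and 5. miR-27a-3p was 77.7%, 79.6%, 77.5%, 78.2% and 76.3% of miR-27-3p reads in serum and 82.7%, 95.1% and 79.3% in contact libraries. The exact binomial intervals on day 3 (93.2% to 94.6% and 94.4% to 95.7%) lay above those of every other library for both pairs. The contact libraries were above the serum libraries for miR-23, and for miR-27 only days 0 and 3 had a share above every serum library.

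As a ratio, miR-27a-3p to miR-27b-3p went from 4.77 on contact day 0 to 19.4 on day 3, a change of 4.06-fold (3.28 to 5.02), and stood at 3.83 on day 5, 0.198 of day 3 (0.164 to 0.239). miR-23a-3p to miR-23b-3p went from 9.45 to 15.5, a change of 1.64-fold (1.39 to 1.95), and then to 8.90, 0.573 of day 3 (0.474 to 0.695). Both pairs thus moved in the same direction at each step. Day 5 over day 0 was 0.942 for miR-23 (0.779 to 1.14) and 0.803 for miR-27 (0.663 to 0.970). In the serum experiment the 16 ratios between times ran from 0.826 to 1.12, and 1 of them had an interval that left out 1, miR-23 at 24 h over 0 h (0.830, 0.736 to 0.937). These intervals cover counting error between single libraries and not the spread between cultures, and the reads carry no molecular identifiers.

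**Figure D3:**
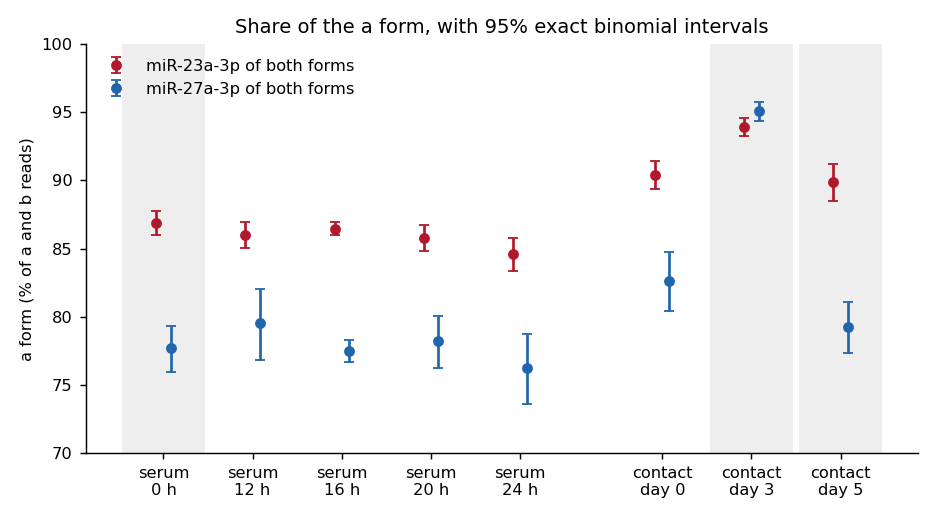
Share of the a form among a and b reads (percent, axis from 70 to 100) for the miR-23 and miR-27 guides in each library; bars are 95% exact binomial intervals and grey bands mark G0. miR-27a-3p reaches 95.1% on contact day 3 and lies between 76.3% and 82.7% in the other 7 libraries.

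Set as G0 against the other libraries, the mean log2 ratio of miR-23a-3p to miR-23b-3p was 3.28 ± 0.62 (SD, n = 3) against 2.72 ± 0.30 (SD, n = 5), a difference of 0.56. An exact 2-sided permutation test over the 56 ways to choose 3 of the 8 libraries gave p = 0.143, or 0.429 adjusted over the 3 ratios tested. For miR-27a-3p to miR-27b-3p the means were 2.67 ± 1.39 and 1.91 ± 0.22, a difference of 0.77 that did not exceed the spread (exact permutation p = 0.429, adjusted 0.643). Without contact day 3 the difference was −0.04, so that library decided its direction. Counted over the first 19 bases in place of 20, it was 0.89 (exact permutation p = 0.25). The smallest p that this design allows is 0.0357. With splits kept within each experiment the exact permutation p-values were 0.4 for miR-23 and 1 for miR-27, of a smallest possible 0.133. Every p-value here reflects how these single libraries vary, time and phase among the sources of that variation, and not separate cultures of 1 condition.

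The passengers of miR-24 are the arms that tell its 2 hairpins apart. miR-24-2-5p had 88, 41, 468, 67 and 30 reads at serum 0 to 24 h and 14, 52 and 67 reads on contact days 0, 3 and 5. miR-24-1-5p had 7 reads at 16 h, 5 at 20 h and 0 in the other 6 libraries. The first cluster's passenger was thus 98.5% of miR-24-5p at 16 h (95% exact binomial interval 97.0% to 99.4%) and 93.1% at 20 h (84.5% to 97.7%). Elsewhere the counts of 0 allow miR-24-1-5p up to 3 counts of both passengers' reads, which is 3.41% of 88 reads at serum 0 h and 21.4% of 14 reads on contact day 0. In 6 of the 8 libraries, all 3 labelled G0 among them, the share of miR-24-2-5p was therefore at its ceiling of 100%. The sign of a G0 difference in this share was fixed by those counts of 0, and its exact permutation test (p = 0.714) says nothing about G0. How miR-24-3p itself divides between the hairpins cannot be read from these counts.

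Other passengers were rare. miR-23a-5p stood at 32.2, 135, 70.1, 114 and 166 CPM at serum 0 to 24 h and 348, 181 and 38.8 CPM on contact days 0, 3 and 5. miR-27a-5p stood at 144, 28.4, 149, 169 and 5.54 CPM in serum and 353, 127 and 136 CPM in contact libraries, where 5.54 CPM was 1 read. miR-24-2-5p stood at 258, 146, 449, 283 and 166 CPM in serum and 76.1, 147 and 260 CPM in contact libraries. miR-24-2-5p was lowest on contact day 0 under each of the 3 scalings. miR-23a-5p and miR-27a-5p were highest there with TMM and DESeq2 scaling, but at serum 24 h and 20 h with total miRNA reads. miR-27b-5p had 51 reads at 16 h, 10 at 20 h, 22, 8 and 15 on contact days 0, 3 and 5, and 0 in the other 3 libraries. miR-23b-5p had 2 reads at 16 h, 6, 2 and 1 in the contact libraries, and 0 in the rest.

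The share of a hairpin's reads from the passenger arm needs no scaling. It was 0.217% to 2.14% for miR-23a, 0.121% to 6.04% for miR-27a, 0% to 1.90% for miR-23b and 0% to 9.40% for miR-27b, each highest on contact day 0. For miR-24-2, with all miR-24-3p reads as its guide, it was 0.0854% on contact day 0, its lowest, and 1.32% at 16 h, its highest. miR-3074, cut from the strand opposite miR-24, had 2 reads of its 5p arm at 16 h, and the 3p arm opposite miR-24-2 had 0 in all libraries.

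Whether arrest as such moved the members was asked across all miRNAs, with the 3 G0 libraries against the other 5 and the experiment as a term (edgeR quasi-likelihood test, Benjamini-Hochberg adjustment over 347 miRNAs). No member was called. Of the 11 arms, 9 had enough reads to be tested (miR-23b-5p and miR-24-1-5p did not), 2 had a positive and 7 a negative difference, and 0 passed the test. Over all 347 miRNAs, 0.865% passed. At an unadjusted p under 0.05 there were 0 members and 39 miRNAs in all. DESeq2 called 14 miRNAs and no member. The median log2 difference was −0.23 for the 9 arms and −0.31 for all miRNAs tested (−0.11 with total reads as the scale).

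Among the guides, the log2 difference of G0 from other libraries was −0.41 (SE 0.39, edgeR adjusted p = 0.692) for miR-23a-3p and −0.65 (SE 0.47, adjusted p = 0.634) for miR-23b-3p. For miR-27a-3p it was 0.26 (SE 0.51, adjusted p = 0.849), for miR-27b-3p −0.08 (SE 0.56, adjusted p = 0.953) and for miR-24-3p −0.18 (SE 0.39, adjusted p = 0.849). With total-read scaling miR-24-3p was at 0.08 and miR-27b-3p at 0.09. Without serum 0 h, the library with epithelial markers and the blood marker miR-142-3p, they were at 0.20 and 0.05 and miR-27a-3p at 0.88, and no guide passed the test. The part of those markers in the differences was not tested. Among the passengers the differences were −1.78 (SE 1.13) for miR-23a-5p, −0.23 (SE 1.07) for miR-27a-5p, 0.62 (SE 0.94) for miR-24-2-5p and −2.96 (SE 2.45) for miR-27b-5p, with adjusted p-values of 0.598 to 0.923.

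**Figure D4:**
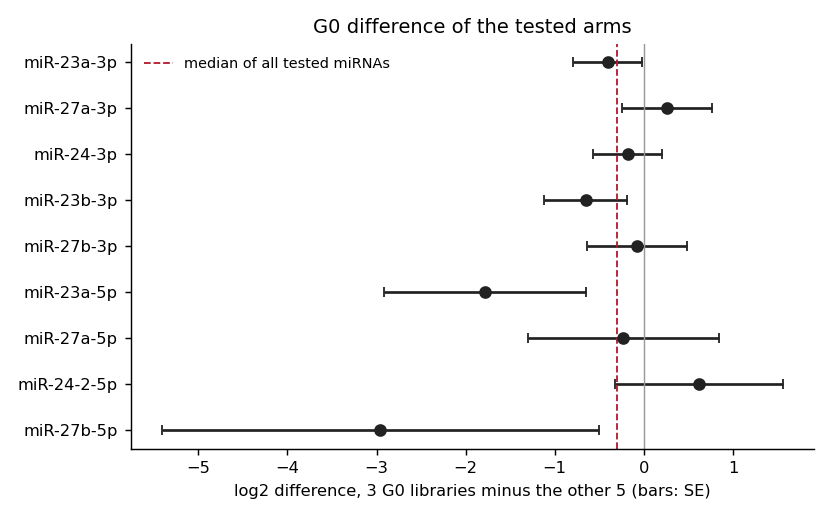
Log2 difference of the 3 libraries labelled G0 from the other 5 for the 9 arms tested (edgeR, experiment as a term); bars are SE, and the dashed line is the median of all miRNAs tested, −0.31. The guides lie between −0.65 and 0.26, and the passengers have the wider errors.

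Whether starvation and contact gave unlike differences was asked with an interaction term in edgeR. No member passed, and 0% of the 347 miRNAs did, with 14 at an unadjusted p under 0.05. The members' adjusted p-values were 0.884 to 0.957, with a smallest unadjusted p of 0.339 in this edgeR fit. DESeq2 called 0 miRNAs.

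Single libraries were then compared as ratios, counting a miRNA where it differed at least 2-fold with an interval that left out 1 and had at least 100 reads in 1 of the libraries. There is no replicate check on any of these differences. The starved library differed from every released library in 0 of the 7 members with enough reads, against 4% of 225 miRNAs that were higher in it and 6.22% that were lower. Set against 0 h singly, 2 of 5 members were lower at 12 h, miR-27a-3p (0.494, 0.453 to 0.538) and miR-27b-3p (0.442, 0.373 to 0.522), where 24.4% of miRNAs were lower and 28.3% higher. No member differed from 0 h by this measure at 16 h (14.6% of miRNAs higher, 6.39% lower), 20 h (18.5% and 16.7%) or 24 h (15.9% and 21.7%).

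After release, miR-27 moved most among the guides. At 16 h over 12 h, 4 of 7 members were higher and 0 lower, beside 31.5% of miRNAs higher and 19.4% lower. They were miR-27a-3p (3.12, 2.90 to 3.37), miR-27b-3p (3.53, 3.05 to 4.10), miR-27a-5p (5.24, 2.59 to 12.4) and miR-24-2-5p (3.09, 2.24 to 4.36). Of these, miR-27a-5p (155 reads at 16 h, 8 at 12 h) and miR-24-2-5p (468 and 41) had at least 100 reads at 16 h only. These passengers thus entered the 7 only through the library where they were higher, and their part in the count is no support. The miR-23 guides of the same clusters were nearer to 1, at 0.943 (0.913 to 0.975) for miR-23a-3p and 0.907 (0.836 to 0.986) for miR-23b-3p. From 16 to 20 h no member passed 2-fold (12.4% of miRNAs higher, 14.7% lower), nor from 20 to 24 h (3.82% and 4.58%). At 24 h over 12 h, both labelled G1, miR-27b-3p was higher (2.06, 1.70 to 2.49; 1.95 with total reads), beside 10.1% of miRNAs higher and 19.5% lower.

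Between the highest and lowest of the 4 released libraries, miR-27a-3p, miR-27b-3p, miR-27a-5p and miR-24-2-5p of the 7 members were at least 2-fold apart, and so were 69.4% of 222 miRNAs. Of these, miR-27a-5p and miR-24-2-5p had at least 100 reads only at 16 h, and without that library they had too few reads to be compared. Without the 12 h library neither miR-27 guide was 2-fold apart. The 759 reads of miR-27a-3p and 195 of miR-27b-3p in the 12 h library were 6 and 5 distinct inserts, and the part this played in their low values was not tested.

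In the contact experiment the second cluster's miR-23 guide was lower in both arrested libraries than on day 0. miR-23b-3p was at 0.491 of day 0 on day 3 (0.417 to 0.578) and at 0.470 on day 5 (0.392 to 0.563), the 1 member called of 5 with enough reads. Of 167 miRNAs, 12.6% were lower on both days and 17.4% higher. The call was lost with total reads as the scale (0.704 on day 3), with a minimum of 500 reads and where the whole insert had to match the hairpin.

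On day 3 over day 0, miR-27b-3p was lower as well (0.468, 0.383 to 0.572), so that with TMM or DESeq2 scaling both guides of the second cluster alone were past 2-fold, beside 20.9% of 153 miRNAs lower and 18.3% higher. The guides of the first cluster stood at 0.807 (0.770 to 0.846) for miR-23a-3p and 1.90 (1.77 to 2.04) for miR-27a-3p, or 1.16 and 2.72 with total reads. On that scale miR-27b-3p was at 0.671 and miR-23b-3p at 0.704, so neither was past 2-fold and miR-27a-3p was, beside 28.8% of miRNAs higher and 5.88% lower. miR-24-3p stood at 1.25 (1.23 to 1.27). On day 5 over day 0, miR-23a-3p (0.443, 0.417 to 0.470) and miR-23b-3p were lower, beside 27.2% of 158 miRNAs lower and 38% higher. With DESeq2 scaling miR-24-3p was lower too (0.471), beside 31.6% of miRNAs lower and 34.2% higher. On day 5 over day 3, miR-27b-3p was higher (2.77, 2.32 to 3.31) and miR-24-3p lower (0.465, 0.456 to 0.474), beside 26.8% of 164 miRNAs higher and 17.1% lower. miR-23a-3p and miR-27a-3p were both at 0.548 of day 3 (0.519 to 0.579 and 0.515 to 0.582). Past 2-fold between the 2 days labelled G0 were thus 2 of the 5 guides with TMM scaling. With DESeq2 scaling there were 4 (all but miR-23b-3p), beside 19.5% of miRNAs higher and 21.3% lower. With total reads there were 3, without miR-27b-3p (1.91), beside 17.7% of miRNAs higher and 27.4% lower. miR-24-3p was lower on day 5 under all 3 scalings.

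Between the 2 ways of arrest, contact-arrested cells had less miR-23b-3p than starved cells, at 0.369 on day 3 (0.321 to 0.423) and 0.353 on day 5 (0.301 to 0.412). On day 3 miR-27b-3p was lower too (0.345, 0.291 to 0.407), and on day 5 miR-23a-3p was (0.475, 0.450 to 0.501). With miR-24-3p higher on both days, 1 of 5 members was higher and 2 lower on each, beside 32.4% of 176 miRNAs higher and 27.3% lower on day 3, and 38.6% of 171 higher and 16.4% lower on day 5. With DESeq2 scaling miR-24-3p on day 5 was at 1.82, under 2-fold (29.8% of miRNAs higher, 20.5% lower). With total reads, 1 member was higher and 3 lower on day 3, beside 17.6% of miRNAs higher and 40.3% lower. On day 5, 0 members were higher and 4 lower on that scale, beside 11.7% of miRNAs higher and 49.7% lower. miR-23b-3p was lower on both days under all 3 scalings. Each way of arrest was used in 1 experiment only, so the way of arrest and the experiment cannot be told apart. On contact day 0, labelled asynchronous, miR-23b-3p was already lower than at serum 0 h (1684 against 2242 CPM, TMM). There miR-27b-3p was lower too (1152 against 1565 CPM) and miR-24-3p higher (88945 against 23504 CPM). miR-23a-3p was not lower on that day (15906 against 14832 CPM).

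The 3′ ends of the guides differed as well. miR-24-3p often carried 1 U that the hairpin does not encode, in 37.8%, 33.7%, 30.9%, 28.6% and 23.2% of its reads at serum 0, 12, 16, 20 and 24 h and 30.2%, 34.0% and 37.2% on contact days 0, 3 and 5. The median miRNA with at least 100 reads had such a U in 0% to 2.43% of reads, and miR-24-3p ranked between 2 and 10 by this share in every library. Each serum library had a lower share than the one before it in time, and each contact library a higher one, with exact binomial intervals that did not overlap within an experiment. These intervals cover counting error only. The miR-24-3p reads were 24 distinct inserts at serum 0 h and 17 at 12 h, against 26 to 138 in the other libraries. The part of this in the order of the shares was not tested. The 3 G0 libraries (34.0% to 37.8%) were all above the other 5 (23.2% to 33.7%), as they were in 2.74% of the 73 miRNAs with at least 100 reads in every library. Using only reads whose adapter held no mismatch, a choice made after seeing the data, contact day 3 was at 34.1% and serum 12 h at 34.2%, so the groups then overlapped.

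**Figure D5:**
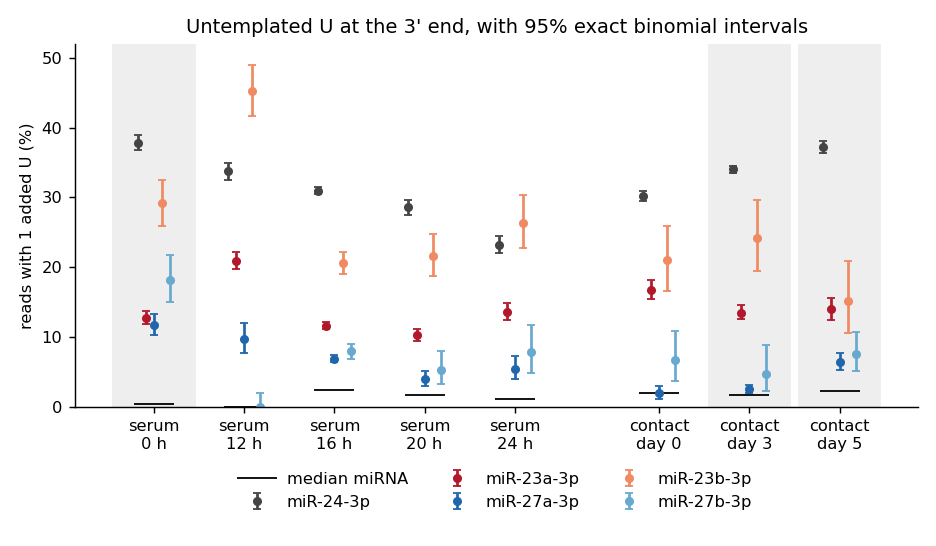
Reads of each guide that end in 1 untemplated U, as a percent of that guide's reads in each library, with 95% exact binomial intervals; short lines mark the median miRNA with at least 100 reads and grey bands mark G0. miR-24-3p goes from 37.8% to 23.2% over the serum times and goes from 30.2% to 37.2% over the contact days.

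The other guides carried the added U less evenly. It was on 10.2% to 20.9% of miR-23a-3p reads, 15.2% to 45.3% of miR-23b-3p, 1.88% to 11.8% of miR-27a-3p and 0% to 18.2% of miR-27b-3p, and for these 4 the G0 libraries overlapped the others. An added A was on 4.77% to 7.84% of miR-24-3p reads. Among the reads counted, none of them under 20 bases, the commonest length was 20 bases for miR-27a-3p (53.9% to 78.0% of its reads) and 21 for miR-27b-3p in every library. For miR-24-3p it was 22 bases, but 23 at serum 0 h and on contact day 5, where the added U was most frequent. The 5′ end, which sets the seed, was the same in 95.9% of miR-23a-3p reads, 98.9% of miR-27a-3p, 97.1% of miR-24-3p, 95.3% of miR-23b-3p and 98.3% of miR-27b-3p, counting inserts that matched their hairpin in full.

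As a description over these 8 libraries, which share depth and scaling between all miRNAs, the levels most like each guide's were found by Pearson correlation of log2(CPM + 1). miR-24-3p was most like let-7e-5p, miR-181b-5p and miR-130b-3p (r = 0.94 each), and miR-23a-3p most like miR-365-3p (0.92), miR-342-3p (0.89) and miR-1306-5p (0.84). miR-23b-3p was most like miR-329-3p and miR-494-3p (0.96 each) and miR-340-3p (0.93). For miR-27a-3p they were miR-669b-5p (0.88), miR-9-5p (0.87) and miR-17-3p (0.84), and for miR-27b-3p miR-382-3p and miR-10b-5p (0.85 each) and miR-540-5p (0.82). Between the members r was 0.83 for miR-23a-3p with miR-23b-3p and 0.63 for miR-24-3p with miR-27a-3p. It was 0.13 for miR-27a-3p with miR-27b-3p, −0.19 for miR-23a-3p with miR-27a-3p from the same cluster, and −0.77 for miR-24-3p with miR-23b-3p.

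A list of 12 miRNAs often studied in fibroblasts and the vessel wall beside these clusters was read from the same edgeR fit. Of its members, 11 could be tested, 6 had a positive difference in G0, and 0 passed, beside 0.865% of all 347 miRNAs. The median log2 difference was 0.67 for the list and −0.31 for all miRNAs tested. miR-21a-5p, a growth-linked miRNA, was at 1.03 (SE 0.48, edgeR adjusted p = 0.423) and miR-29b-3p, known to target collagen mRNAs, at 1.52 (SE 0.70, edgeR adjusted p = 0.423). miR-222-3p, known to target the CDK inhibitor p27, was at −0.87 (SE 0.41, edgeR adjusted p = 0.424), and miR-145a-5p, a smooth-muscle miRNA, at −1.04 (SE 0.51, edgeR adjusted p = 0.465).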

How the data were processed

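Each deposited file lists distinct 36-nt reads and the count of each, per the file contents. How the authors called or filtered reads, and any build, is not given in the sources used here; library preparation is cited in the labels to earlier work. The 3′ adapter was removed where at least 6 bases were seen, with 1 mismatch per 8 bases, and inserts of 16 to 30 nt were kept (Python 3.11.15). Arms were defined on 1174 GENCODE M21 hairpins from inserts of 18 to 26 nt (at least 10 reads, at least 50% at 1 5′ end), and a read was counted where its first 20 bases were identical. Of the 435 miRNAs, 49 come from more than 1 hairpin. RefSeq mature entries matched 10 of the 11 arms. Pairs of libraries were also compared with total-read and DESeq2 scaling, alternatives added after seeing the data.

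Counts were tested with edgeR 4.0.16 (R 4.3.3; TMM, robust quasi-likelihood, 5 residual degrees of freedom), at least 10 CPM in at least 3 libraries, 2-sided adjusted p under 0.05. The SE is the log2 difference over the square root of F. DESeq2 1.42.0 was an alternative. The scripts were tested on simulated data. Exact permutation tests took the a to b ratios; that of miR-24-5p used the share in percent, since miR-24-1-5p was at 0 in 6 libraries and the log2 ratio had no value there. A count of 0 was given 3 counts per library as its limit. Intervals are exact (Clopper-Pearson for shares) at 95%, and cover counting error only. Named miRNAs were all arms of the 6 hairpins, miR-3074, the 3 miRNAs most like each guide, and up to 4 of the 12 listed. Members and lists were chosen with earlier results of these data known. Nothing says that the libraries come from separate cultures.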

Additional observations from a re-analysis of the deposited data

Results flagged for a closer look

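In the 5 libraries not labelled G0, 19 measures of the members were searched for a library far from the others, a search in which chance picks about 1 in 20 groups, and 4 were found. miR-24-3p on contact day 0 stood at 88945 CPM against 21004 to 33506 CPM in the 4 released serum libraries. miR-23b-5p on contact day 0 stood at 32.6 CPM (6 reads) against 0 to 1.92 CPM. In both, the library apart is the only 1 of the 5 from the contact experiment, so the library and the experiment cannot be told apart. The miR-24-2 passenger was 93.1% of miR-24-5p reads at serum 20 h against 98.5% to 100%, which rests on 5 reads of miR-24-1-5p. The share of miR-23b-3p with 1 added U was 45.3% at serum 12 h against 20.5% to 26.4%, in the library where its 748 reads were 6 distinct inserts.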

How the results depend on the processing

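No paired analysis was possible because each condition has 1 library and the labels carry no numbers that pair libraries across groups. The miR-23 ratio kept its direction under all 13 alternatives. Where all libraries were kept and split freely, it stayed short of the threshold (exact permutation p = 0.143 to 0.179). With 1 library left out, or splits kept within each experiment (smallest possible 0.133), no p could pass, so falling short there shows no stability. Without contact day 0 the exact permutation p was 0.0571, the smallest possible there, as every G0 ratio then lay above every other ratio. The miR-24-5p share, at its ceiling in every G0 library, cannot show stability. The miR-27 ratio kept its direction in 12 of 13 and was −0.036 without contact day 3 (range without 1 library −0.036 to 1.20). Of 347 miRNAs, 3 were called for G0; the count was 14 with DESeq2, 8 with no filter on low counts, 1 without the experiment term and 0 to 12 without 1 library (0 without serum 0 h or 24 h, 1 without serum 20 h or contact day 5, 5 without contact day 3, 12 without 16 h). The interaction count of 0 became 1 where the whole insert had to match. With a minimum of 500 reads the single-library counts fell from 23 to 8 (starved), 50 to 24 (contact) and 154 to 69 (released). Without 1 library they ran from 24 to 48 (highest without 16 h), 60 to 103 (highest without contact day 3) and 63 to 140 (63 without 16 h, 101 without 12 h). The starved and contact rules need every ratio past 2-fold, so fewer libraries make them easier to meet. The released rule takes the highest over the lowest, so fewer libraries make it harder. The direction of these changes was thus largely set by the rules.

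Members with small differences turned sign. miR-24-3p was at 0.078 with total reads, 0.64 without the experiment term and −0.44 to 0.20 without 1 library (above 0 without serum 0 h or 24 h). miR-27b-3p was at 0.091 with total reads and −0.42 to 0.15 without 1 library (above 0 without serum 0, 16 or 24 h, or contact day 0 or 3). miR-27a-5p was at −1.14 to 0.72 without 1 library (above 0 without serum 20 h or contact day 0), and miR-24-2-5p at −0.023 without the experiment term. The cause of these changes was not tested. The other 5 tested arms kept their sign under all 14 alternatives. Passengers with under 100 reads in most libraries are limited by depth.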
